A study of Mus musculus with 4 samples.

Results

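The solitary peaks are Tbx20 binding peaks on chromosomes 1 to 19 whose midpoint lies more than 500 kb from the midpoint of every other peak and whose score is under 60. They number 492, which is 12.3% of the 4012 peaks of the list (95% exact Clopper-Pearson interval 11.3 to 13.3%, counting error only) and 12.4% of the 3972 autosomal peaks. Both their spacing and their score were selected on the measured peaks themselves, so distances and scores below are descriptions without a test. The hearts came whole from CD1 mice of 2 months that carried Tbx20 fused to GFP, and their chromatin was pulled down with a goat anti-GFP antibody. How the fusion is driven and how many hearts were pooled is not given in the labels. The control was DNA of whole heart input, listed as 3 CD1 samples with embryonic ages (inputs 1 and 2 at E11.5, input 3 at E9.5), so its age differs from that of the adult hearts. With 1 immunoprecipitate there is no replicate, and the sequencing depth is unknown.

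Tbx20 is a T-box transcription factor that heart muscle cells need both to form and to keep working in the adult. T-box factors bind short DNA motifs, often together with GATA, NKX2-5 and MEF2 family factors, and act from promoters and from enhancers that can lie far from the gene they control. Binding sites of such factors often come in groups near genes active in the tissue, and long stretches without a site are common in gene-poor parts of the genome. A ChIP-seq peak marks a place where the immunoprecipitate has more reads than the control. Peaks are accepted past a threshold, so solitary means alone among accepted peaks and says nothing of weaker binding nearby.

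The solitary set was read against 3200 autosomal peaks that have a neighbour within 500 kb and also score under 60, called neighboured peaks here. The same score limit was kept in both groups. Without it, the median of the isolated peaks differed by -29 bp in width and 5.57 in score from that of the others. In all, 519 autosomal peaks lay over 500 kb from any other, and 27 of these scored 60 or more and were left out. Such strong peaks made up 5.20% of the isolated peaks (exact 95% interval 3.46 to 7.48%) and 7.33% of the 3453 peaks within 500 kb of another (6.48 to 8.25%), and these intervals overlap.

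**Figure D1:**
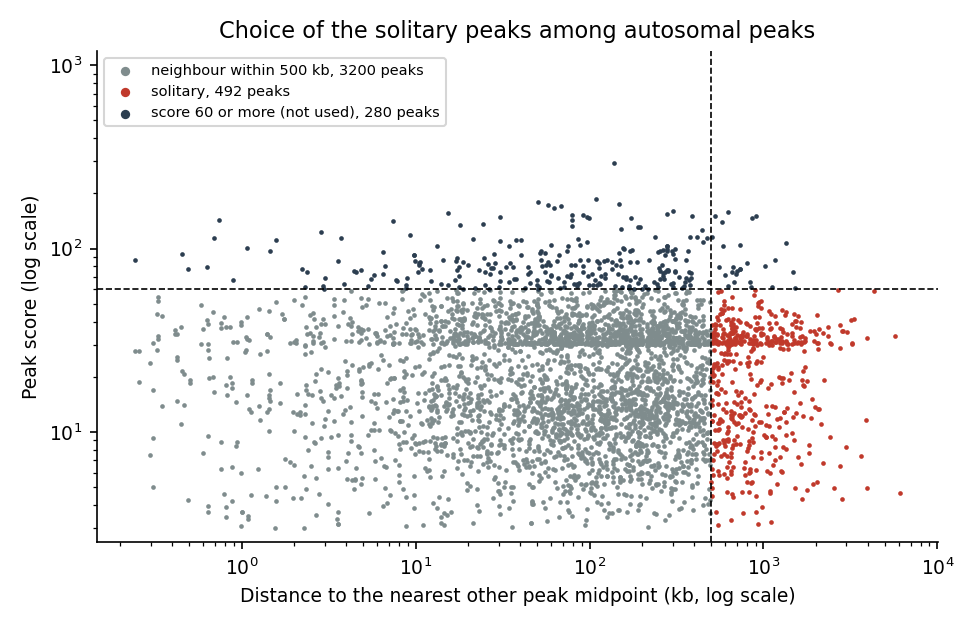
Each point is 1 autosomal peak, with its distance to the nearest other peak midpoint in kb (x, log scale) against its score (y, log scale), and dashed lines at 500 kb and at a score of 60. The 492 solitary peaks fill the lower right field without a break from the 3200 neighboured peaks, and a dense band of scores just above 30 crosses both groups.

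The limits of the set did not coincide with a gap in the data. The solitary peak closest to the distance limit was chr15:52572091-52572225, with its nearest neighbour at 500.4 kb and a score of 5.37. It was followed by chr9:105514484-105514741 at 500.9 kb (score 18.95), chr9:47215131-47215329 at 503.2 kb (score 6.32), chr12:52218870-52219184 at 503.5 kb (score 14.9) and chr17:75897542-75897776 at 503.6 kb (score 14.1). Just outside lay chr18:44470999-44471194 at 499.96 kb (score 7.15), chr9:7770011-7770268 at 499.9 kb (score 30.9) and chr1:151118555-151118823 at 498.4 kb (score 33.3), then chr13:36623845-36623976 at 498.3 kb (score 30.4) and chr4:55095714-55095900 at 495.7 kb (score 6.57). The nearest neighbour of chr17:75897542-75897776 was chr17:75393967-75394115, also solitary, at the same distance with a score of 34.4. Counting it, the peaks named inside the limit scored 5.37 to 34.4 and those outside 6.57 to 33.3. At the score limit, chr12:112562563-112562732 and chr8:112217051-112217376 scored 59.6 and chr2:92136693-92136909 scored 59.1. The lowest isolated peaks above it were chr16:54354590-54355016 at 60.8, and chr9:55356600-55356786 and chr13:58702605-58702859, both at 61.4.

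Solitary peaks were narrow. Their median width was 196 bp (95% binomial interval of the median 186 to 208 bp, over peaks), with quartiles of 154 and 261 bp and a range of 129 to 749 bp, and together they covered 109 kb. Neighboured peaks had a median of 223 bp (218 to 227 bp), quartiles of 165 and 301 bp and a range of 128 to 1802 bp, so the median of the solitary peaks was lower by 27 bp. Both tails differed. Of the solitary peaks, 99 or 20.1% were narrower than 150 bp (exact 95% interval 16.7 to 23.9%), against 395 or 12.3% (11.2 to 13.5%) of neighboured peaks. Only 21 solitary peaks, 4.27% (2.66 to 6.45%), were wider than 400 bp, against 327 neighboured peaks, 10.2% (9.19 to 11.3%). These intervals do not overlap, but they treat peaks of 1 sample as independent and cover counting error only.

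The widest solitary peak was chr18:70727531-70728280, at 749 bp with a score of 26.8, and its nearest neighbour was 571 kb away. Next came chr10:94605472-94606211, at 739 bp with a score of 49.4, and chr4:128383848-128384493, at 645 bp with a score of only 9.15. Several solitary peaks tied at the narrowest width, 129 bp. The first of them in list order, chr11:70532632-70532761, chr10:6216290-6216419 and chr17:81110737-81110866, scored 23.8, 8.39 and 4.93. Others of that width scored from 4.47 to 31.0, and some of these lay at the upper bound described below. Width and score had a Spearman's rho of 0.06 across the 492 solitary peaks, but of 0.28 among the 196 whose score lies at the upper bound described below and of 0.20 among the other 296. Wider peaks came earlier in the deposited order, with rho of -0.44 between width and place in the list. For all neighboured peaks these relations had rho of 0.09 and -0.38. These correlations are across peaks of 1 library and are descriptions.

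The lower width was also seen among peaks of like score. With all 3692 autosomal peaks under 60 divided into 4 equal bins at scores of 11.03, 19.996 and 33.0, the solitary minus neighboured difference was -23, -25, -28 and -25.5 bp from the lowest to the highest bin. In 4 bins of place in the list the result was uneven. Among the peaks listed first the medians were 254 bp for 95 solitary and 285 bp for 828 neighboured peaks, and among those listed last they were 161 bp for 148 and 182 bp for 775. In the second bin both groups had a median of 214 bp, from 114 solitary and 809 neighboured peaks, so the difference there was 0 bp. In the third bin it was -24.5 bp. Solitary peaks also came later in the list, at a median place of 2434.5 against 2112.5, and 38.2% of them (33.9 to 42.7%) stood among its first 2006 places against 47.25% (45.5 to 48.997%) of neighboured peaks.

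Width fell gradually with distance, and 500 kb was not a turning point. Peaks under 60 with another peak within 10 kb had a median width of 261 bp (401 peaks), and the median was 234 bp at 10 to 50 kb, 217 bp at 50 to 100 kb and 216 bp at 100 to 250 kb. At 250 to 500 kb the 563 neighboured peaks already had a median of 198 bp (192 to 210 bp). The 319 solitary peaks at 500 to 1000 kb also had a median of 198 bp (188 to 211 bp), and the 173 beyond 1000 kb one of 187 bp (168 to 209 bp). Set against peaks at 250 to 500 kb alone, the solitary peaks were narrower by 2 bp at the median in place of 27 bp. The narrow width is thus not particular to peaks beyond 500 kb.

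**Figure D2:**
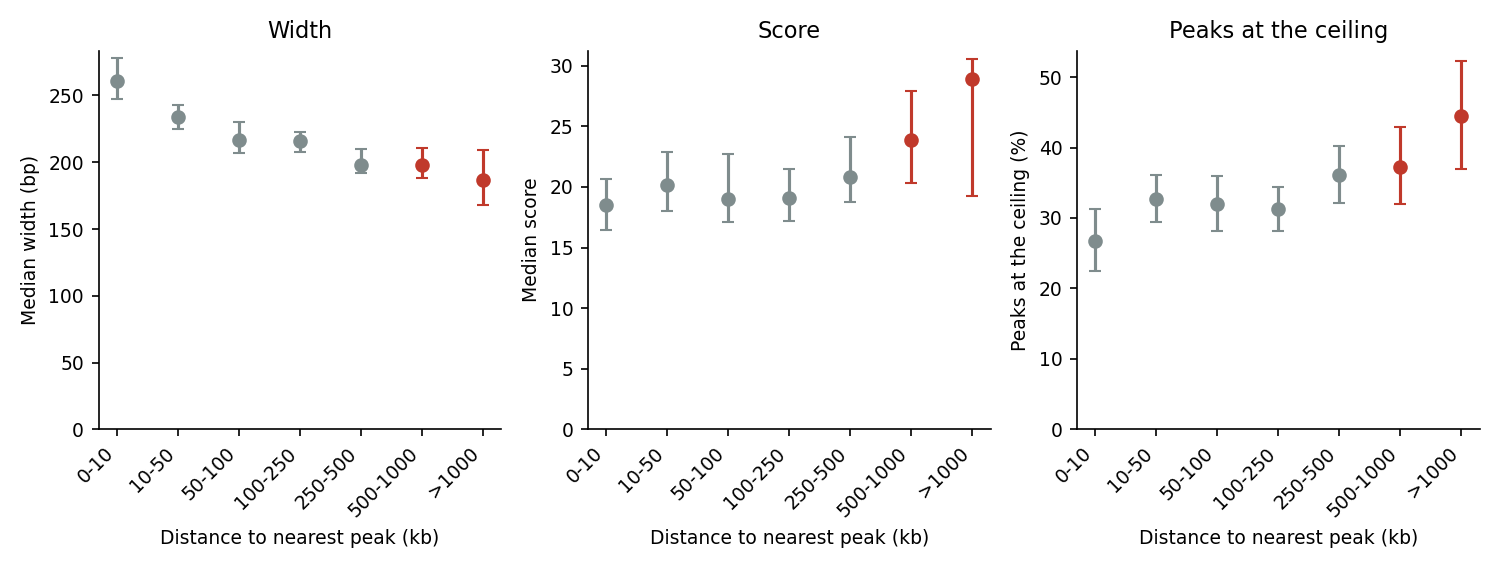
Median width in bp (left), median score (middle) and percent of peaks at the ceiling (right) for autosomal peaks scoring under 60, by distance to the nearest peak in kb; red points are solitary peaks, grey points neighboured peaks, and bars are 95% binomial intervals over peaks. Width falls from 261 to 187 bp over the 7 classes. The share at the ceiling is 26.7% in the first class and 44.5% in the last, without a steady rise between. Neither has a step at 500 kb.

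The authors' score per peak, which their note says is a read number normalized in a way not stated and taken from QuEST's field ef, had a median of 24.5 among solitary peaks (95% binomial interval 20.8 to 29.2). Among neighboured peaks the median was 19.5 (18.7 to 20.6). If that field is a ratio to input, which the note does not settle, a score depends on the embryonic inputs as well as on the immunoprecipitate. The quartiles were nearly the same, 10.8 and 33.2 for solitary peaks and 11.1 and 33.0 for neighboured ones, so the difference of 5.01 in the medians did not come with a shift of the whole distribution. Scores fell into a low group and a group just above 30 with few peaks between. The solitary median lay in that thin zone, and the neighboured median at the upper end of the low group. Of the solitary peaks, 81 scored from 30 to 32, which is 16.5% (exact 95% interval 13.3 to 20.04%), against 10.7% (9.67 to 11.8%) of neighboured peaks. From 14 to 18 the order was the other way, with 24 solitary peaks or 4.88% (3.15 to 7.17%) against 10.5% (9.46 to 11.6%). Both ranges were picked after the scores were seen. Scores under 10 were about as frequent in both groups, at 23.0% (19.3 to 26.9%) and 21.8% (20.4 to 23.3%).

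**Figure D3:**
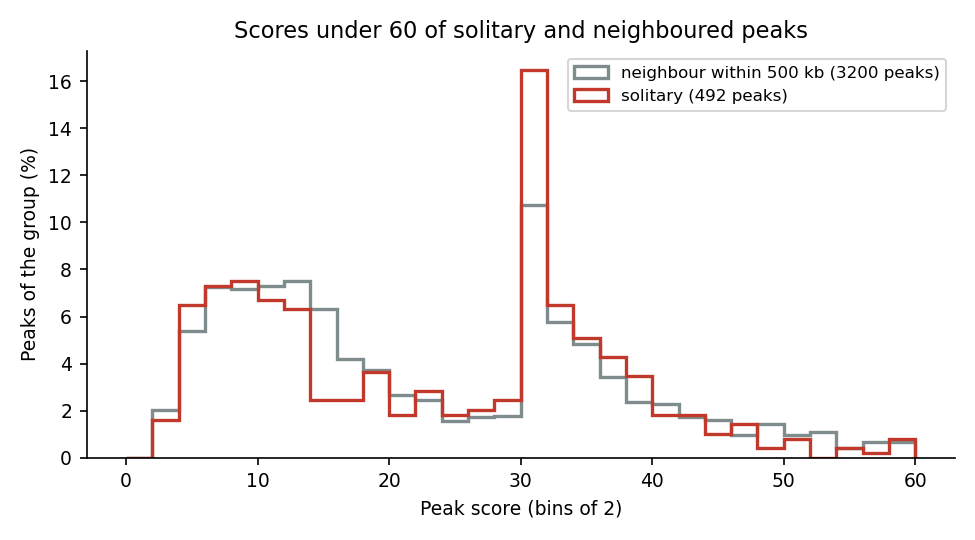
Percent of each group's peaks (y) by score in bins of 2 (x) for 492 solitary and 3200 neighboured autosomal peaks under a score of 60. Both groups have a broad mode near 10 and a sharp one at 30 to 32, which holds 16.5% of solitary and 10.7% of neighboured peaks.

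An upper bound on the score, here called the ceiling, is the highest score found from a given place to the end of the list. By definition it cannot rise along the list. A peak was counted as at the ceiling when its score was within 2% of it. Among solitary peaks 196 of 492 were at the ceiling, 39.8% (exact 95% interval 35.5 to 44.3%), against 1024 of 3200 neighboured peaks, 32% (30.4 to 33.6%). Of the 81 solitary peaks that scored 30 to 32, 73 were at the ceiling, as were 297 of the 343 neighboured ones. That comparison and this one thus share many peaks. Under the score limit of 60, the first peak at the ceiling stood at place 681 among solitary and 678 among neighboured peaks. These shares were not compared without the limit, so its part in the difference was not tested. The share was 26.7% for peaks within 10 kb of another, 36.1% at 250 to 500 kb, 37.3% at 500 to 1000 kb and 44.5% (37.0 to 52.2%) beyond 1000 kb. Solitary peaks at the ceiling scored 29.998 to 59.6 with a median of 33.4, and had a median width of 185 bp. The 296 solitary peaks below it scored 3.10 to 49.4 with a median of 12.2, and had a median width of 200.5 bp. At the places of solitary peaks the ceiling was nowhere under 29.998, so low scores fell below it by definition. Both kinds were about equally isolated, with the nearest peak at a median of 868 kb and 809 kb. In each kind, neighboured peaks were wider, at 210 bp on the ceiling and 228.5 bp below it. Their median scores were also higher, 34.8 (34.3 to 35.3) on the ceiling and 13.3 (12.9 to 13.7) below it. These intervals overlap those of solitary peaks (33.0 to 34.7 and 11.3 to 13.0). The higher median score of all solitary peaks was thus not seen within either kind.

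Apart from those at the score limit, the 5 best-scoring solitary peaks included chr12:21141865-21142064 at 58.5 and chr18:83654019-83654290 at 57.9. All 5 lay at the ceiling. The lowest scores were 3.10 at chr11:77817838-77818038, 3.15 at chr4:4693039-4693202 and 3.23 at chr3:68272351-68272512, followed by 3.32 at chr9:20297364-20297494 and 3.604 at chr2:69736453-69736671. Their scores were between 5.04 and 10.8% of the ceiling. The lowest of all stood at place 642 of the list, ahead of the 5 best-scoring ones.

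The solitary peaks had their nearest neighbour at a median distance of 821 kb, with quartiles of 622 and 1241 kb. The most isolated was chr3:3013250-3013437, the first peak of its chromosome, with no other peak for 6064 kb, a width of 187 bp and a score of 4.68. It had a neighbour on 1 side only. Of peaks with neighbours on both sides, chr16:63816536-63816729 was the most isolated, with 5736 kb free to one side and 6644 kb to the other, a width of 193 bp and a score of 33.4. These 2 peaks were the only ones with no other peak within 5 Mb.

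The next was chr12:21141865-21142064, 4299 kb from its nearest neighbour, which is also among the best-scoring solitary peaks. It was followed by chr1:114299544-114299775 at 3941 kb (score 4.92), chr7:13070579-13070831 at 3932 kb (score 32.7) and chr8:54696618-54696773 at 3886 kb (score 11.7). The last of the 10 were chr14:98242453-98242621 at 3651 kb (score 7.38), chr15:22262764-22262956 at 3305 kb (score 41.5), chr3:73876521-73876651 at 3232 kb (score 30.7) and chr5:62372718-62372849 at 3232 kb (score 30.3). These 10 peaks were 130 to 252 bp wide. Their scores spanned nearly the whole allowed range, from 4.68 to 58.5. Across all 492, score and distance to the nearest peak were almost unrelated, with Spearman's rho of 0.05, as were width and distance, with rho of -0.05.

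Empty stretches around solitary peaks were measured to both sides. Among the 473 with a peak on both sides, the nearer neighbour was at a median of 0.812 Mb and the farther at 1.77 Mb (quartiles 1.08 and 2.85 Mb). The farther flank exceeds the nearer by definition, and its median ratio to it was 1.83. The stretch from one neighbour to the other had a median of 2.64 Mb and reached 21.6 Mb. Both flanks were at least 1 Mb for 161 of them, 34.0%, and at least 2 Mb for 35. For 103, both were under 1 Mb. A further 12 solitary peaks were the first and 7 the last peak of their chromosome, among 19 autosomes. An end peak needs over 500 kb free on 1 side only, so these counts follow in part from the rule.

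**Figure D4:**
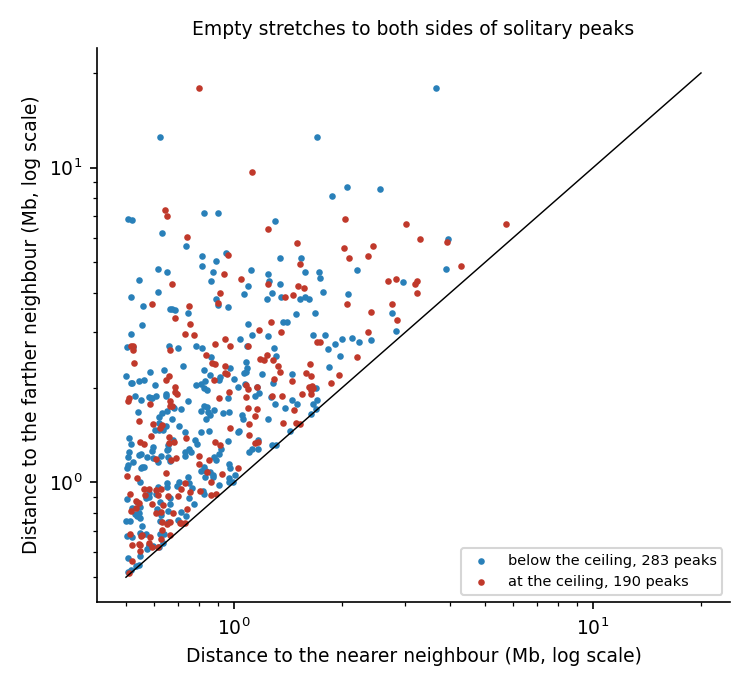
Each point is 1 of the 473 solitary peaks with a peak on both sides, by the distance to the nearer (x) and the farther neighbour (y) in Mb on log scales, with equality drawn as a line and colour showing whether the score is at the ceiling. Points cannot fall below the line, and the 190 peaks at the ceiling and 283 below it are spread over the same range.

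Peak density around solitary peaks was also counted outside the 500 kb that the rule leaves empty. From 0.5 to 5 Mb away to either side, solitary peaks had a median of 13 other peaks (quartiles 9 and 19), against 17 (12 and 22) for neighboured peaks. From 1 to 5 Mb away the medians were 12 and 14, and from 5 to 10 Mb away they were 14 and 15, with quartiles of 9 and 20 against 10 and 21. The difference was thus small beyond 1 Mb, and the ranges overlapped widely. At the other end, 1 solitary peak had 44 others within 5 Mb, so isolated peaks also occur in dense regions. The nearest peak was itself over 500 kb from every other peak for 203 solitary peaks, 41.3%, against 519 of all 3972 autosomal peaks. It already has over 500 kb free on 1 side, so this share follows in part from the rule. For 73 solitary peaks it had a companion within 50 kb. Over all autosomal peaks, 440 had another within 10 kb and 823 at 10 to 50 kb. The nearest peak scored 60 or more for 27, or 5.49%, against 5.20% of all isolated peaks and 7.33% of those within 500 kb of another.

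Peak-poor stretches, defined as at least 1 Mb between consecutive autosomal midpoints, numbered 649 of 3953 gaps and took up 62.4% of the 2376 Mb between the first and last peaks of the autosomes. A solitary peak stood at 1 edge of 317 of them and at both edges of 113, so 430 or 66.3% touched at least 1. Of all 3953 gaps of any length, 770 touched at least 1. Of the 40 gaps of at least 5 Mb, 31 or 77.5% did. Any gap over 500 kb makes a peak at its edge more likely to be solitary, so these counts describe where the peaks lie and follow in part from the rule. All gaps next to a solitary peak together came to 1270 Mb, 53.5% of the span.

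All of the 10 longest gaps had a solitary peak at an edge, 13 such peaks in total, which also follows in part from the rule. The longest, 17.97 Mb on chromosome 14, ran between chr14:80272986-80273214 (score 39.2) and chr14:98242453-98242621 (score 7.38), both solitary. The second, 12.5 Mb on chromosome 4, ran between chr4:16029209-16029355 (score 7.37) and chr4:28516198-28516356 (score 17.8), also both solitary and only 146 and 158 bp wide. A further pair, chr1:44395350-44395506 (score 3.67) and chr1:51572518-51572782 (score 30.5), bounded 7.18 Mb.

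The other 7 gaps had 1 solitary edge each. That of 9.67 Mb on chromosome 12 began at solitary chr12:42050229-42050387 (score 31.4) and ended at chr12:51715367-51715653, which is isolated too but scored 116. One of 8.69 Mb on chromosome 7 ran from chr7:39012179-39012393 to solitary chr7:47698216-47698384 (score 28.4), and one of 8.57 Mb on chromosome 5 from chr5:78239997-78240128 to solitary chr5:86809097-86809229 (score 4.98). Solitary peaks opened the remaining 4, chr3:43053264-43053420 before 8.16 Mb up to chr3:51212835-51213192, chr13:83675384-83675546 before 7.33 Mb up to chr13:91001767-91002048, chr3:10216788-10216919 before 7.003 Mb up to chr3:17219245-17219620 and chr16:77705013-77705295 before 6.88 Mb up to chr16:84587366-84587543. Whether these stretches hold assembly gaps, repeats or few genes was not tested.

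Of the 3972 autosomal peaks, 519 lay over 500 kb from every other, at any score. These formed 304 chains of consecutive isolated peaks. A peak beside an isolated one already has over 500 kb free on that side, so chains follow in part from the rule. Of these chains 171 held 1 peak, 85 held 2, 28 held 3 and 20 held 4 to 6. Thus 334 of the 492 solitary peaks stood next to another isolated peak, and 86 were in chains of 4 or more. The chain spanning most sequence among the 4 with 6 peaks covered 15.7 Mb of chromosome 12, from 42050229 to 57770698. Its 5 solitary peaks scored 31.4, 14.9, 31.1, 15.2 and 40.2 in order of position, and the peak of 116 stands after the first of them. A chain of 6 on chromosome 19, from 30011939 to 35189074, consisted only of solitary peaks. Their scores were 32.9, 30.9, 8.46, 13.4, 26.6 and 34.6, and their widths ran from 129 to 338 bp. The first 2 of these lay at the ceiling and the other 4 below it, so both kinds occurred in the same sparse region.

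Chromosomes differed in how many of their peaks were solitary. Chromosome 16 had the highest share, 27 of 142 peaks or 19.01% (exact 95% interval 12.9 to 26.4%), followed by chromosome 1 with 52 of 292 or 17.8% (13.6 to 22.7%) and chromosome 19 with 20 of 118 or 16.9% (10.7 to 24.96%). The lowest shares were 16 of 216 or 7.41% (4.29 to 11.8%) on chromosome 8, 15 of 182 or 8.24% (4.69 to 13.2%) on chromosome 17 and 23 of 259 or 8.88% (5.71 to 13.0%) on chromosome 11. The intervals of chromosomes 16 and 8 do not overlap, but both were picked as extremes of 19. Chromosome 1 alone held 10.6% of the solitary peaks and 7.35% of autosomal peaks. The share fell with peak density across the 19 autosomes, with Pearson's r of -0.36 and Spearman's rho of -0.50, a description that rests on the same peaks on both axes. Chromosome 19 went against this, with 2.05 peaks per Mb and still a share of 16.9%. It also had the most solitary peaks per Mb of all, 0.347. Chromosome 3 had the lowest density, 1.32 peaks per Mb, and an ordinary share of 12.0%, with the solitary peaks farthest from their neighbours (median 1121 kb).

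**Figure D5:**
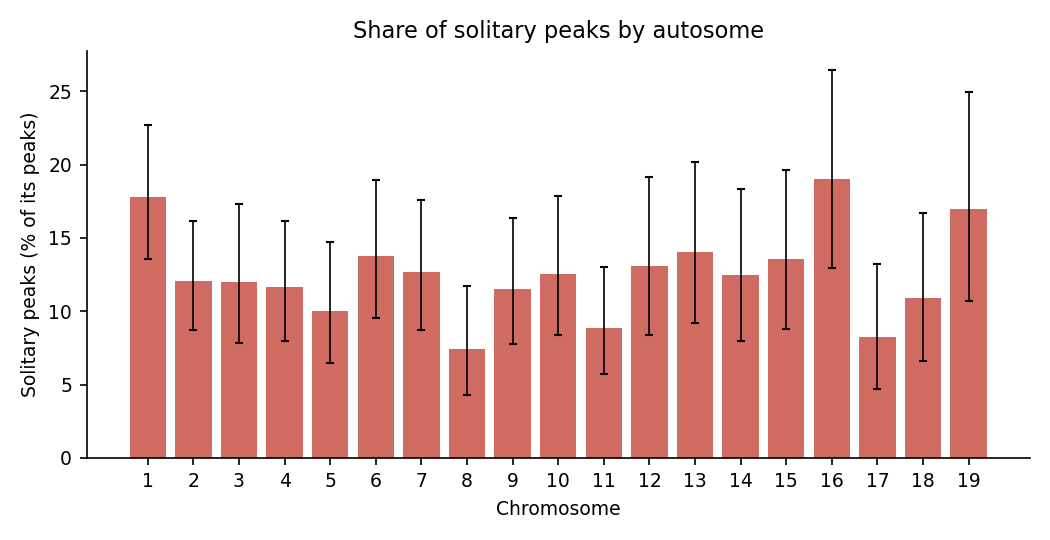
Bars give solitary peaks as percent of all peaks of each autosome, and lines the exact 95% Clopper-Pearson interval. Chromosome 16 is highest at 19.01% and chromosome 8 lowest at 7.41%.

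The differences from neighboured peaks were not the same on every chromosome. Solitary peaks had the lower median width on 14 of 19 autosomes, the higher median score on 14 and the higher share at the ceiling on 15. The largest difference in that direction was -57 bp, on chromosome 18 (173 against 230 bp) and on chromosome 19 (187 against 244 bp), whereas on chromosome 4 the medians were 237.5 and 202 bp. The share at the ceiling was 8.70% for the 23 solitary peaks of chromosome 11 against 30.9% for its neighboured peaks. On chromosome 17 it was 66.7% of 15 solitary peaks against 35.8%. Chromosomes of 1 sample are not replicates, and groups of 15 to 52 peaks give imprecise medians.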

How the data were processed

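The authors called peaks with the peak caller QuEST and deposited, per the note with the list, a score for each peak that is a normalized read number; what it was normalized by is not stated. Positions and the other columns are as deposited by the authors, with mm9 as the build per the submitters' processing notes. Whether a start counts from 0 is not stated. For the aligner, the filters and the use of the 3 inputs, the sources used here give no method. Distances are between midpoints, with all 4012 peaks counted. Medians have 95% order-statistic binomial intervals and shares exact Clopper-Pearson intervals. No test was made, since 1 sample has no replicate and spacing and score chose the peaks. The method was tested on simulated data. Peaks named by position are extremes of distance, score or width, peaks at the limits, and edges of the 10 longest gaps, besides the chain on chromosome 12 and that on chromosome 19, picked after values were seen. The members and this rule were chosen with earlier results of these data known. No genome or annotation of mm9 was used, so nearest genes, sequences and motifs are not analysed here. Alternatives changed the distance limit, its measure, merging within 500 bp, the score limit and the comparison group. Scripts ran in Python 3.11.15 (scipy 1.17.1, numpy 2.4.6, pandas 2.3.3) and figures were drawn with matplotlib 3.10.9.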

Additional observations from a re-analysis of the deposited data

How the results depend on the processing

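The number of solitary peaks was set by the distance limit, with 1055 at 250 kb and 173 at 1000 kb in place of 492, and peak-poor stretches numbered 270 in place of 649 at a minimum of 2 Mb. The lower median width of solitary peaks shrank from -27 to -2 bp when only neighboured peaks at 250 to 500 kb were compared, a setting chosen after seeing the data. With only the 2006 better-scoring peaks kept, 576 were solitary, which is 28.7% of them against 12.3% of the full list, so the share of solitary peaks depends on how many peaks are accepted. Of 37 alternative values, 33, with that count of 576 among them, stayed within 1.5 times the count or within the binomial interval of the median or difference. Distance between edges gave the main values again. The interval of the width difference was wide, at -41 to -10 bp, so this tally is a weak check. The score difference of 5.01 had an interval of 0.148 to 10.5, made from the ends of both median intervals. This interval reached below 0 at limits of 250 and 1000 kb and without the score limit. It also did so against peaks at 250 to 500 kb only, and without neighboured peaks within 10 kb of another. It stayed above 0 with distance between edges, with merging and without the first and last peaks of chromosomes. Chosen after seeing the data were also the settings without peaks within 10 kb of another or without peaks that come first or last on a chromosome, the bins of score and list place, the counts of peaks by distance beyond 0.5 Mb and, for the number of solitary peaks but not for the stretches, the 2006 better-scoring peaks. No paired analysis was possible because 1 immunoprecipitate has values and the inputs have none here, and no replicate could be left out. The read depth is unknown, so how many weaker neighbours were missed was not tested.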

Other observations

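Chromosome X, which the set leaves out, had 12 of its 27 peaks over 500 kb from any other, and 10 of these scored under 60. The 10 were 132 to 285 bp wide with a median of 167.5 bp, scored 3.48 to 46.7 with a median of 15.3, and had their nearest peak at a median of 4835 kb and up to 22181 kb away. None of the 13 peaks on chromosome Y lay over 500 kb from the others.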
